A study of Mus musculus with 8 samples.

Results

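Gene expression in the brain of newborn mice was set against that of the embryonic brain at 15.5 days post coitum (dpc). Of the 8 arrays of the study, 6 entered the comparison, chosen by their titles: 4 neonatal arrays, of which 2 were of cortex and 2 of cerebellum, and 2 arrays of brain from 15.5 dpc embryos. Both arrays of 13.5 dpc brain were left out. All samples came from T9H/+ heterozygotes, in which chromosomes 7 and 15 have exchanged segments, and all carried a duplication of 1 of 2 kinds. In maternal-7 samples the proximal part of chromosome 7 was duplicated from the mother and that of chromosome 15 from the father, and in paternal-7 samples the parents were exchanged. Each tissue was measured once with each duplication, on the Affymetrix 430B array, so neither age included a mouse without a duplication. The labels give no day for the neonatal mice and describe the cortex samples also as forebrain. The series design states that there were no biological replicates, and whether animals were pooled is not stated. P-values therefore measure only the spread between these arrays. The embryonic samples were whole brain and the neonatal ones dissected regions, so age and the part of the brain sampled cannot be told apart, and neither can a change in the number of cells of a type and a change in RNA per cell.

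At mid to late gestation the mouse brain still holds dividing progenitors, and most cortical neurons are being born or are migrating. Around birth neurons extend axons and form synapses, astrocytes and oligodendrocyte precursors are generated from the same progenitors, and granule cell precursors of the cerebellum go on dividing at its surface. Transcription factors that were set up early in forebrain, midbrain or hindbrain remain active in the neurons of each region and mark where a tissue was taken.

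The pair of embryonic arrays was less alike than either neonatal pair, and array medians differed between the ages. Values are signal intensities in array units, with a nearly equal trimmed mean on each array (497.3 to 498.0) and a median of 229.8 to 235.3 on the neonatal and 257.1 to 277.9 on the 15.5 dpc arrays. The 3′ to 5′ signal ratio was 0.740 to 0.804 for Gapdh and 1.04 to 1.12 for actin. Across the 12499 probe sets tested, which are not independent replicates, the log2 differences within a pair of arrays had an SD of 0.398 in cortex, 0.413 in cerebellum and 0.563 at 15.5 dpc. The 15.5 dpc paternal-7 array correlated with the neonatal arrays at 0.829 to 0.834, and its maternal-7 partner at 0.866 to 0.886. Snhg14, a noncoding RNA of chromosome 7 made from the paternal copy, matched the labels on all 6 arrays. Its 3 probe sets read at most 38.8 on maternal-7 arrays and at least 288 on paternal-7 arrays.

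More probe sets were higher than lower in the newborn regions. Testing was limited to probe sets brighter than the array's median on 2 or more of the 6 arrays, which left 12499 of 22511 probe sets and 6608 genes, and a probe set was called at a limma adjusted p (Benjamini-Hochberg) below 0.05. Differences are on the log2(signal + 54.7) scale, centred on each array's median, and understate changes of dim probe sets; ± is their standard error. For the mean of both regions against 15.5 dpc, 1180 probe sets (9.44%) were higher and 220 (1.76%) lower. In cortex 663 (5.3%) were higher and 109 (0.872%) lower, and in cerebellum 810 (6.48%) were higher and 127 (1.02%) lower. The share of higher calls depended on the scaling: it was 84.3% with centring, 65.0% on the signals as deposited and 69.7% after quantile normalization. Without centring the median of all tested probe sets moved from 0.06 to -0.10.

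These counts rested on few arrays. The count for the mean of both regions was 319 without the maternal-7 cortex array, 77 without the paternal-7 one and 0 without the maternal-7 or the paternal-7 cerebellar array (2926 and 2709 by unadjusted p), each with 1 residual degree of freedom. It was 2132 without the 15.5 dpc maternal-7 array and 738 without the paternal-7 one. In fits without the duplication term, added after the data were seen, leaving out 1 array gave 238 to 1920. The cortex count was 0 without any 1 of the neonatal arrays, and the cerebellum count was 0 without a cerebellar array and 293 without a cortical one, with the duplication term. Without the 15.5 dpc maternal-7 array these counts were 1764 and 1863. With no filter on dim probe sets limma called 0, against 4712 at an unadjusted p below 0.05, where 3623 of the 12499 tested had such a p with the filter.

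Most changes that passed the test in both regions were rises. Both regions were called higher at 453 probe sets (3.62%, 321 named genes) and lower at 41 (0.328%, 32 named genes). The split was 257 and 80 without centring and 267 and 60 after quantile normalization. The regional contrasts share both 15.5 dpc arrays, so a shared call is not an independent repeat. All 4 neonatal arrays lay beyond both embryonic arrays at 492 of these 494 probe sets. Such separation was also common among all 6608 tested genes (1 probe set a gene). On the signals as deposited, all 4 neonatal arrays were above both embryonic ones for 1216 of them and below for 1567. The shared count was 0 without any 1 of the 4 neonatal arrays, 1266 without the 15.5 dpc maternal-7 array and 318 without the paternal-7 one. A further 265 probe sets were called in cortex and 428 in cerebellum while the difference between the regions was not called, and these are assigned to neither region.

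**Figure D1:**
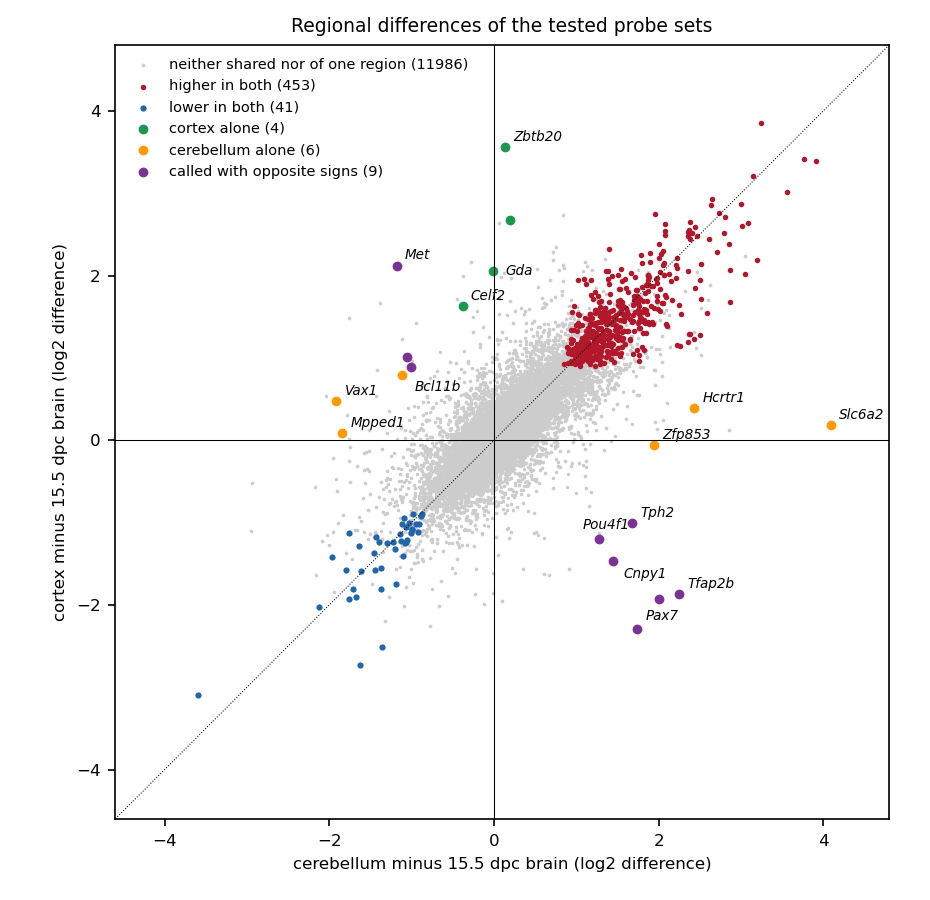
Each point is 1 of the 12499 tested probe sets, with its log2 difference from 15.5 dpc brain in cerebellum on the x axis and in cortex on the y axis; the dotted line marks equal differences. The 453 probe sets called higher in both regions and the 41 called lower lie along the dotted line, and 19 whose regional difference was called lie off it: 4 called in cortex alone, 6 in cerebellum alone and 9 with opposite signs.

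Genes of DNA replication and mitosis were lower in the newborn regions where they were called. Of 154 such genes listed, 75 were on the array and 46 were tested, and 9 of these fell and 0 rose in the mean of both regions, where 2.03% of all tested genes fell and 10.3% rose (1 probe set a gene, its brightest). The median difference of the 46 was -0.40, against 0.08 for all 6608 tested genes. The summed signal of the tested members was 22550 to 25240 on the neonatal arrays and 38440 and 38860 at 15.5 dpc. Untested members exceeded the median on at most 1 array, among them Top2a (154 to 425 units over the 6 arrays) and Mcm6 (27.3 to 122). Without 1 array the number that fell was 0 to 9, and 3 to 9 without the duplication term. It was 15 on the signals as deposited and 10 after quantile normalization.

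Within the list, a spindle checkpoint gene and a kinetochore gene had the largest falls. Bub1b, the checkpoint kinase BUBR1, read 50.7 and 38.5 in cortex, 151 and 167 in cerebellum, and 766 and 609.9 at 15.5 dpc, with the maternal-7 array first here and below. Every neonatal signal was under the array median and both embryonic ones were above it. The difference was -2.73 ± 0.21 (adjusted p = 0.0188) in cortex and -1.63 ± 0.21 (adjusted p = 0.0206) in cerebellum. Signals below the median are treated as not distinguishable from background, so the fall was at least 2.93-fold in cortex and at least 2.94-fold in cerebellum. Spc24, a subunit of the NDC80 complex that joins kinetochores to microtubules, read 78.4 and 163 in cortex, 104 and 102 in cerebellum, and 971 and 527 at 15.5 dpc. The groups did not overlap, and it fell by at least 3.07-fold in cortex (adjusted p = 0.0411) and at least 3.08-fold in cerebellum (adjusted p = 0.0329). Cdca8, the chromosomal passenger protein borealin, fell in both regions at all 3 of its probe sets. The brightest read 1581 and 1071 in cortex, 1581 and 1234 in cerebellum, and 3645 and 2770.0 at 15.5 dpc, with all 4 neonatal arrays below both embryonic ones. It differed by -1.09 ± 0.19 in cortex and -0.99 ± 0.19 in cerebellum.

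Among the genes of replication, Gins2, of the GINS complex of the replicative helicase, read 212 and 319 in cortex, 538 and 508 in cerebellum, and 1900.4 and 1282 at 15.5 dpc. Its difference was -2.19 ± 0.30 (adjusted p = 0.0251) in cortex and -1.32 ± 0.30 (adjusted p = 0.0554) in cerebellum, so that the cerebellar value was not called. Mcm5, a subunit of the helicase itself, read 677 and 594 in cortex, 798 and 1152 in cerebellum, and 2693 and 1834 at 15.5 dpc. The fall was called in the mean of both regions at -1.28 ± 0.26 (adjusted p = 0.0342) and in cortex at -1.56 ± 0.30, while cerebellum stood at -1.0 ± 0.30 (adjusted p = 0.106). Dscc1, of the clamp loader for sister chromatid cohesion, was lower in both regions by at least 1.35-fold in their mean, and is not in the list. Sgo2a, which protects centromeric cohesion, stood at -1.03 ± 0.19 (adjusted p = 0.0261) in the mean of both regions. Atad2, a chromatin ATPase, stood at -1.16 ± 0.17 (adjusted p = 0.0182), and the spindle-linked Gas2l3 at -0.90 ± 0.16, all called. The kinesin gene Kif20b fell at least 1.64-fold. Cenpp, a centromere protein, fell in both regions at 1 probe set and in cortex only at its brighter one, which stood at -0.80 ± 0.21 (adjusted p = 0.0629) in the mean.

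The promoters of this list held the CCAAT box and the cell cycle gene homology region (CHR) more often than those of the tested genes together. In promoters of cell cycle genes the CCAAT box is bound by NF-Y and the CHR by the MuvB complexes. CCAAT and the CHR core TTTGAA were searched on both strands from 250 bases before to 50 after each RefSeq start site (GRCm38.p6), and matches may overlap. Of the 128 list genes with a promoter in the table, 68.8% held CCAAT, 45.3% the CHR core and 33.6% both. The shares were 41.9%, 14.8% and 5.84% over 5293 tested genes, and 41.1%, 20.2% and 7.97% over all 27025 genes. Most of the 128 were not tested here, so their shares describe the list and not its falls. Of the 9 list genes called lower, 6 had a promoter to search: 5 held CCAAT, 3 the CHR core and 2 both. The 20 shared falls with a promoter gave 70.0%, 35% and 30.0%, and the 260 shared rises 37.3%, 10.4% and 4.62%. The cAMP response element TGACGTCA, searched in the same way after values were seen, stood in 6.25% of the list's promoters, 3.42% of those of tested genes, 2.31% of the shared rises and 0 of the 20 shared falls. Some of the shared falls are list members, so these sets are not independent, and a match is a description of letters, not of binding. Promoters are shown to set matches beside falls, from list genes with a shared fall at 1 or more probe sets, 5′ to 3′ on the strand of the gene, with matches on either strand in capitals. Bub1b lies at chr2:118597961-118598260 (plus strand), Cdca8 at chr4:124936868-124937167 (minus), Ckap2l at chr2:129297163-129297462 (minus) and Cenpp at chr13:49652682-49652981 (minus).
Bub1b: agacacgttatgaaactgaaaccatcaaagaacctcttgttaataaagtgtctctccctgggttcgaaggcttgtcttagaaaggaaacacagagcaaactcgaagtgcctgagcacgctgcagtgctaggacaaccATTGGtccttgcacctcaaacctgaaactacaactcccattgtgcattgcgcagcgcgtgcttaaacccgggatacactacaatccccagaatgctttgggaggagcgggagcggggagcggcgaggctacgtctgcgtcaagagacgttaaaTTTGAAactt
Cdca8: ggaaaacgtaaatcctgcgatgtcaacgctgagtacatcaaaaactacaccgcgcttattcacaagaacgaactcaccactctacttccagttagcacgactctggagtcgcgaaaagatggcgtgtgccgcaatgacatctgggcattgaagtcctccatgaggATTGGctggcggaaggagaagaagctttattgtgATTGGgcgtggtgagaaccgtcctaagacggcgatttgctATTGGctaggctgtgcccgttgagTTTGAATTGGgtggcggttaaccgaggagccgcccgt
Ckap2l: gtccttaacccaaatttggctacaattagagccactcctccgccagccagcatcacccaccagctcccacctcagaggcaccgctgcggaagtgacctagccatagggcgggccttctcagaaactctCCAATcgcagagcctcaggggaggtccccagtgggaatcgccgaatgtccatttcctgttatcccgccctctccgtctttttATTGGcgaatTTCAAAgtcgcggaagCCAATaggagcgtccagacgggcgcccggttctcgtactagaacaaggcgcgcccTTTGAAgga
Cenpp: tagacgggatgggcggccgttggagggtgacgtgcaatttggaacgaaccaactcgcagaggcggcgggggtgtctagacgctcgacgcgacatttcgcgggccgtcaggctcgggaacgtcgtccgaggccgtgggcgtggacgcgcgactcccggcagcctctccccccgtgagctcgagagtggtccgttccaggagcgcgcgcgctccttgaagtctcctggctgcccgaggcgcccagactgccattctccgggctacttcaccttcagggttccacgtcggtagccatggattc
Counted from the start site to the first base of the match, Bub1b held CCAAT at -113 and the CHR core at 41. Cdca8 held CCAAT at -85, -51, -11 and 19 and the CHR core at 14, where the last pair overlap. Ckap2l, a mitotic spindle protein gene, held CCAAT at -122, -40 and -14 and the CHR core at -30 and 42. The window of Cenpp held neither. Ckap2l was lower at 1 probe set, at -0.90 ± 0.18 in cortex and -0.87 ± 0.18 in cerebellum, while its brighter one stood at -0.08 ± 0.18 (adjusted p = 0.789) in the mean of both regions.

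The largest rises shared by newborn cortex and cerebellum included genes of secretion, firing and adhesion in neurons. The largest shared rise by the smaller of both regional differences was that of Vgf, the precursor of neurosecretory peptides, which read 2979 and 3947 in cortex, 4127 and 4644 in cerebellum, and 470.5 and 199 at 15.5 dpc. The lowest neonatal signal was several times the highest embryonic one. The geometric mean of the signals was 11.2 times the embryonic one in cortex and 14.3 times in cerebellum. The log2 differences were 3.42 ± 0.39 (adjusted p = 0.0215) and 3.77 ± 0.39 (adjusted p = 0.0171). Kcnq3, a subunit of the M-type potassium channel that limits repetitive firing, read 1693 and 1897 in cortex, 1450.0 and 2046 in cerebellum, and 192 and 149.6 at 15.5 dpc. It went from below the median on both embryonic arrays to well above it on all neonatal ones, at least 6.7-fold in cortex and at least 6.44-fold in cerebellum. The 1 other probe set of Kcnq3 stood at 0.30 ± 0.22 (adjusted p = 0.408). Adgrl3, the adhesion receptor latrophilin 3 of excitatory synapses, read 1475 and 1439 in cortex, 877 and 988 in cerebellum, and 84.7 and 43.9 at 15.5 dpc, a rise of at least 5.45-fold in cortex and at least 3.48-fold in cerebellum. Its 5 other tested probe sets stood between 0.48 and 0.84 in the mean of both regions and were not called, so the large rise belongs to 1 probe set.

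The named genes also included enzymes, transporters and membrane proteins. Nceh1, a cholesterol ester hydrolase, read 772 and 1137 in cortex, 1149 and 1608 in cerebellum, and 89.3 and 23.0 at 15.5 dpc, which is at least 3.51-fold in cortex and at least 5.09-fold in cerebellum; its 2 other probe sets were called higher in the mean of both regions. Clec2l, a C-type lectin-like gene, rose at least 6.05-fold in cortex and at least 8.96-fold in cerebellum, from 197 and 159.9 units to 1546 to 2411. Slc8a3, a sodium-calcium exchanger that removes calcium after firing, went from 189 and 177 to 955 to 2026 units. The rule that named these 12 genes took only probe sets with all 4 neonatal arrays above both embryonic arrays. Tmem151a, Xkr4 and Slc7a14 had mean differences of 2.86 ± 0.40, 2.79 ± 0.21 and 2.76 ± 0.35, and Serinc3 rose at least 3.26-fold. The transcriptional repressor gene Zhx3 rose at least 5.96-fold and the noncoding clone transcript 9430021M05Rik at least 1.78-fold. Not every probe set of these genes did the same. Of the 5 others of Zhx3, 2 were called higher in both regions and 3 stood at 0.26 to 0.43, and the 1 other of Slc7a14 and of 9430021M05Rik stood at -0.13 ± 0.16 and -0.18 ± 0.18.

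**Figure D2:**
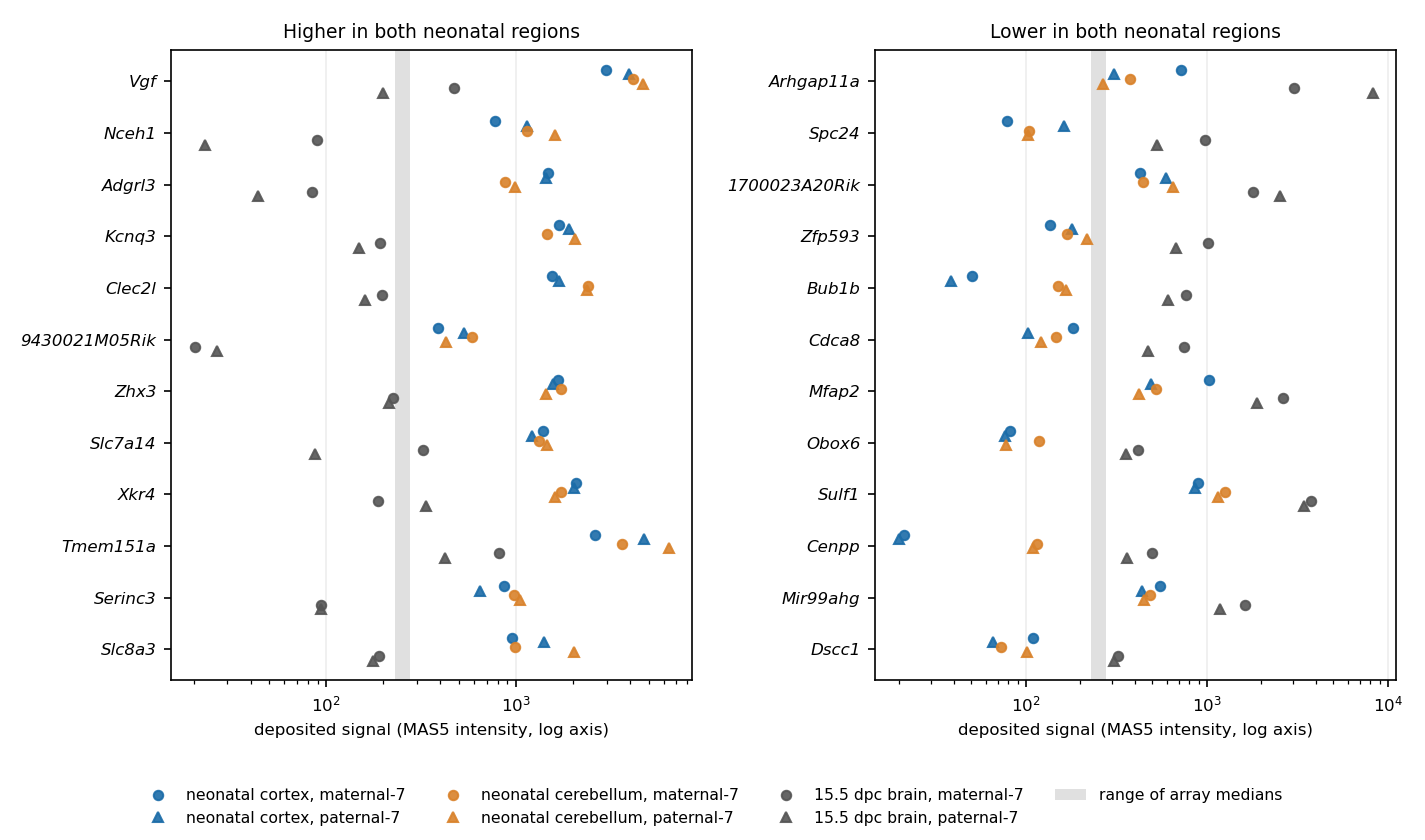
Deposited signals (log axis) of the 12 genes named for the largest shared rises and the 12 for the largest shared falls, with 1 point per array, coloured by tissue and shaped by duplication; the grey band is the range of array medians, 229.8 to 277.9. By the rule that named them, the 4 neonatal points of each of the 24 genes lie on 1 side of both 15.5 dpc points. The 15.5 dpc signals of Nceh1, Adgrl3 and Kcnq3 lie left of the band.

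Presynaptic genes serve the synaptic vesicle and transmitter release. Of 32 tested, 14 rose and 0 fell in the mean of both regions. Their median was 0.78, against 0.08 for all tested genes, of which 10.3% rose and 2.03% fell. Syt1, the calcium sensor of release, read 15030.0 and 16543 in cortex, 14911 and 13748 in cerebellum, and 6648 and 8127 at 15.5 dpc, about 1 unit of log2 higher in either region (1.26 ± 0.19 and 1.12 ± 0.19). The vesicle phosphoprotein genes Syn2 and Syn3 stood at 1.28 ± 0.16 and 1.02 ± 0.17 in the mean. Nrxn2, a presynaptic adhesion gene, read 5677 and 5749 in cortex, 6625 and 6027 in cerebellum, and 2907 and 2675 at 15.5 dpc and stood at 1.26 ± 0.16 (adjusted p = 0.0165). Dnm3 and Synj1, which act in vesicle retrieval, stood at 1.33 ± 0.18 and 1.12 ± 0.17. All of these were called in both regions, with no overlap between the ages. Syt13 (1.38 ± 0.18) and the active zone scaffold genes Bsn (1.38 ± 0.26) and Pclo (1.16 ± 0.23) were called in the mean of both regions and not in each. The summed signal of the 32 genes was 120900 to 145500 on the neonatal arrays and 86670 and 91020 at 15.5 dpc.

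Receptors and scaffolds of the postsynaptic side showed 29 rises and 0 falls among 52 tested genes, with a median of 0.91. Over all tested genes 10.3% rose and 2.03% fell. Both glutamate and GABA receptor genes were among the 29 rises. Grm5, a metabotropic glutamate receptor, read 4292 and 4538 in cortex, 3748 and 4438 in cerebellum, and 1384 and 1050.0 at 15.5 dpc and rose by 1.93 ± 0.21 in the mean of both regions. The NMDA receptor subunit Grin3a read 2065 and 2949 in cortex, 3028 and 2794 in cerebellum, and 867 and 902 at 15.5 dpc, with a difference of 1.71 ± 0.20 (adjusted p = 0.0137). In both genes each neonatal signal exceeded the higher embryonic one more than 2-fold. Gabrb1 and Gabrb2, of the GABA-A receptor, stood at 1.74 ± 0.19 and 1.30 ± 0.17, and Gabra5 at 1.5 ± 0.20. Glra3, a glycine receptor subunit, read 233 and 188 in cortex, 499.7 and 605 in cerebellum, and 46.8 and 30.0 at 15.5 dpc and was brightest in cerebellum. The 15.5 dpc and cortical signals were below the array median, so no fold is given for cortex (adjusted p = 0.025), and the rise in cerebellum was at least 2.06-fold (adjusted p = 0.0148). Camk4, a calcium-dependent kinase of neuronal nuclei, read 3251 and 3794 in cortex, 3158 and 3029 in cerebellum, and 807 and 498 at 15.5 dpc and rose by 2.44 ± 0.24. Nlgn1, the neuroligin of excitatory synapses, rose at least 2.05-fold. In this list 13 of the 52 genes were called higher in both regions, as were 238 of all 6608 tested genes.

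Several of the other subunits reached the threshold in 1 region. In cortex these were Grin2b (1.94 ± 0.20, with 0.83 ± 0.20 in cerebellum), Neto1 (2.29 ± 0.19 against 0.72 ± 0.19) and Dlgap1 (1.76 ± 0.20 against 0.82 ± 0.20). In cerebellum they were Gabra3 (1.41 ± 0.20, with 0.74 ± 0.20 in cortex) and Grin2d (1.53 ± 0.19 against 0.84 ± 0.19). Adjusted p in the region not called ranged from 0.0617 for Grin2d to 0.0893 for Gabra3. For none of these 5 genes was the difference between cortex and cerebellum called, so they are not assigned to a region.

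Voltage-gated ion channel genes rose at 22 of 36 tested members and fell at 0, with a median of 0.93. Over all tested genes 10.3% rose and 2.03% fell. The sodium channel Scn2a, which carries action potentials in young axons, read 4073 and 5877 in cortex, 4532 and 5795 in cerebellum, and 1526 and 1327 at 15.5 dpc. Every neonatal signal was more than 2-fold the higher embryonic one. The difference was 1.91 ± 0.26 (adjusted p = 0.0245) in cortex and 1.97 ± 0.26 (adjusted p = 0.0206) in cerebellum. Scn3a, a sodium channel known from the embryonic brain, also rose, by 1.48 ± 0.16, while Scn1a, called higher at 1.79 ± 0.24, read 29.7 and 27.9 units at 15.5 dpc and 123 to 268 in the newborn, too near the array medians for a fold. Among potassium channels Kcna2 rose at least 1.56-fold and Kcna6 stood at 1.27 ± 0.17, and the leak channel Nalcn at 1.18 ± 0.18. The calcium channel genes Cacna1c, Cacna1e and Cacnb1 stood at 1.07 ± 0.18, 1.03 ± 0.19 and 1.05 ± 0.17, all called in the mean of both regions. Kcnip2, a subunit of A-type channels that is also in the telencephalon list, was called in the mean of both regions through cortex, where it rose at least 5.82-fold and stood at 2.63 ± 0.31 against 0.06 ± 0.31 (adjusted p = 0.928) in cerebellum. Its difference between the regions was not called.

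With 1 array left out, the numbers of rises were 0 to 17 for presynaptic, 0 to 33 for postsynaptic and 0 to 22 for channel genes. Without the duplication term they were 3 to 15, 12 to 29 and 4 to 20. After quantile normalization 8 presynaptic genes rose. The medians of these 3 lists were 0.59 or more with any 1 array left out, and 0.55 or more after quantile normalization.

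Markers of newborn neurons did not move one way. Of 19 tested, 5 rose and 1 fell, with a median of 0.01, where 10.3% of all tested genes rose and 2.03% fell. On the signals as deposited 4 rose and 3 fell, with a median of -0.15, and after quantile normalization 3 and 3, with a median of -0.18. Dclk1, a microtubule-associated kinase close to doublecortin, read 7451 and 8655 in cortex, 6173 and 6456 in cerebellum, and 2868 and 3085 at 15.5 dpc and rose by 1.41 ± 0.16. The guidance receptor genes Unc5d and Robo1 rose by 1.24 ± 0.18 and 1.30 ± 0.21, Dpysl5 by 1.09 ± 0.17 and Myt1l by 0.74 ± 0.16. Draxin, a repulsive guidance protein, read 2109 and 1429 in cortex, 1866 and 1320.5 in cerebellum, and 3335 and 3047 at 15.5 dpc and fell, with a difference of -0.76 ± 0.17 (adjusted p = 0.0408). Sox11 stood at -0.12 ± 0.20 (adjusted p = 0.741) in cortex and was called in cerebellum at -0.98 ± 0.20 (adjusted p = 0.0442). Of the 13 tested markers of progenitors and radial glia, 0 were called in any of the 3 contrasts with 15.5 dpc, with a median of -0.23. Summed over these 13, the signal was 15830 to 19380 on the neonatal arrays and 19850 and 20090 at 15.5 dpc.

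Astrocyte markers had the highest median among the lists with 10 or more tested genes, at 1.13 in the mean of both regions. Of 12 tested, 8 rose and 0 fell, where 10.3% of all tested genes rose and 2.03% fell. Hepacam, an adhesion protein of astrocytes, read 3549.5 and 3067 in cortex, 4553 and 3651 in cerebellum, and 1502 and 1109.5 at 15.5 dpc, with differences of 1.48 ± 0.19 (adjusted p = 0.0239) in cortex and 1.78 ± 0.19 (adjusted p = 0.0171) in cerebellum. Slc6a11, a GABA transporter of astrocytes, read 2088 and 2335 in cortex, 3716 and 6021 in cerebellum, and 967 and 993 at 15.5 dpc. Its signals were highest in cerebellum and lowest in the embryo, and it differed by 1.29 ± 0.24 in cortex and 2.38 ± 0.24 in cerebellum. The bicarbonate transporter Slc4a4 rose by 1.19 ± 0.17, the glypican Gpc5 at least 2.2-fold, the glutamate transporters Slc1a2 and Slc1a3 by 1.06 ± 0.22 and 0.99 ± 0.19, the receptor Ntrk2 by 1.22 ± 0.24 and the water channel Aqp4 by 1.26 ± 0.27. The summed signal of the 12 was 26240 and 31250 in cortex, 33960 and 39070 in cerebellum, and 14270 and 16710 at 15.5 dpc. Gfap, the filament gene of mature astrocytes, was dim on all 6 arrays (124.5 to 249.5) and was not tested. Without 1 array 0 to 9 of the 12 rose, and 2 to 7 without the duplication term; after quantile normalization 5 rose.

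Of the oligodendrocyte lineage, 2 of 8 tested genes rose, both markers of precursors, where 10.3% of all tested genes rose. The median of the 8 was 0.11 in cortex and 0.81 in cerebellum. Gpr17, a receptor of precursors about to differentiate, read 607 and 1327 in cortex, 1189.6 and 2184 in cerebellum, and 265 and 106 at 15.5 dpc and differed by 2.64 ± 0.45 (adjusted p = 0.0232) in the mean of both regions. Lhfpl3, also of precursors, read 1649 and 1768 in cortex, 2654 and 3113 in cerebellum, and 782 and 1061 at 15.5 dpc and rose by 1.40 ± 0.16. Pdgfra, the growth factor receptor that marks precursors, stood at 0.35 ± 0.16 (adjusted p = 0.211), with 181 and 165 units in cortex, 360.1 and 333 in cerebellum and 221 and 200.3 at 15.5 dpc. Of the 2 tested microglia markers, Laptm5 rose at least 1.42-fold.

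Cell types of vessels, meninges and choroid plexus, which a dissection can include to a varying extent, gave 0 calls in the mean of both regions. Tested were 5 of 9 vessel, 7 of 17 meningeal and mesenchymal and 4 of 5 choroid plexus genes on the array. Of all tested genes 10.3% rose and 2.03% fell, so 0 calls in lists this short do not show that these genes were unchanged. The medians of these lists, in that order, were 0.14 (-0.03 on the signals as deposited), -0.20 and -0.31. Their summed signals were 4006 to 5869, 3229 to 4207 and 36480 to 46210 on the neonatal arrays. At 15.5 dpc they were 4609 and 5116, 4052 and 4775, and 50700 and 58950. Most of the last sum is Ttr, the choroid plexus transthyretin, at 33732 to 42874 on the neonatal arrays and 53757 and 47096 at 15.5 dpc, a difference of -0.22 ± 0.18 (adjusted p = 0.47). Pax3, a dorsal factor also found in the neural tube, was called lower in cortex, at -1.57 ± 0.30 (adjusted p = 0.0419), with cortical signals below the median and no fold given. Whether such tissue had a part in the changes of other genes was not tested, and 0 red blood cell markers were on the array.

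**Figure D3:**
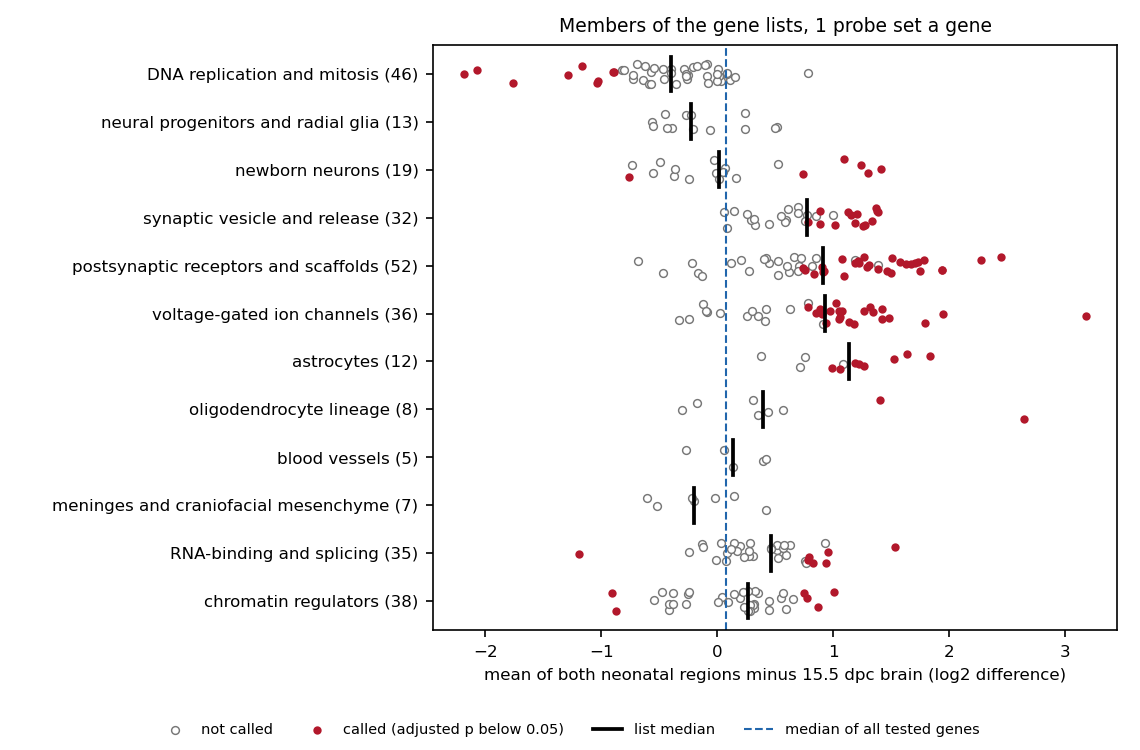
Each point is the mean log2 difference of both neonatal regions from 15.5 dpc brain for 1 tested gene of the list named on the left, with the number tested in brackets; red points were called, black bars are list medians and the dashed line is the median of all tested genes, 0.08. Called genes of replication and mitosis lie left of 0, and those of the synaptic, channel and astrocyte lists lie right of it.

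Most falls lay outside the division list: of the 134 tested genes called lower in the mean of both regions, 9 were in it. The list had 46 tested members and leaves out genes such as Dscc1. The count therefore does not tell how many of the other falls are of genes that act in dividing cells. Arhgap11a had the largest of the named falls and read 721 and 306 in cortex, 378 and 267 in cerebellum, and 3022 and 8242 at 15.5 dpc. Both embryonic arrays were above every neonatal one, and they also differed from each other more than 2-fold. The difference was -3.09 ± 0.54 (adjusted p = 0.0367) in cortex and -3.59 ± 0.54 (adjusted p = 0.0246) in cerebellum. Sulf1, an extracellular enzyme that trims heparan sulfate, read 896 and 861 in cortex, 1252 and 1155 in cerebellum, and 3757 and 3432 at 15.5 dpc, and its 2 probe sets stood at -1.59 ± 0.16 and -0.87 ± 0.17. Mfap2, a protein of extracellular microfibrils, read 1022 and 490.3 in cortex, 521 and 420.2 in cerebellum, and 2639 and 1886 at 15.5 dpc and stood at -1.69 ± 0.20 (adjusted p = 0.0146). Mir99ahg, the host transcript of a microRNA cluster that includes a let-7 member, stood at -1.27 ± 0.18 (adjusted p = 0.017). Zfp593, a zinc finger gene, fell at least 3.56-fold, and the oocyte-type homeobox gene Obox6, at least 1.66-fold. The clone-named 1700023A20Rik read 427 and 592 in cortex, 445 and 654 in cerebellum, and 1790.0 and 2521 at 15.5 dpc and stood at -1.75 ± 0.16.

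Genes of the posterior axis and of fetal growth were measured only in small numbers. Hoxa5, a patterning gene of the caudal hindbrain and spinal cord, read 176 and 181 in cortex, 193 and 469.6 in cerebellum, and 807 and 738 at 15.5 dpc. It was at least 3.31-fold lower in cortex (adjusted p = 0.0478), and cerebellum stood at -1.03 ± 0.34 (adjusted p = 0.131). The 3 tested Hox genes had a median of -1.20, with 1 called. Igf2bp1, a fetal RNA-binding protein and let-7 target, read 268 and 291 in cortex, 415 and 268 in cerebellum, and 871 and 630.2 at 15.5 dpc and was lower in the mean of both regions, at -0.98 ± 0.21 (adjusted p = 0.0373). It was 1 of 4 tested genes of the let-7 list, of which the others were not called.

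Changes of 1 region were defined by a called difference between cortex and cerebellum. Limma called 19 probe sets there, 10 higher in cortex (0.08%) and 9 in cerebellum (0.072%), with 1016 at an unadjusted p below 0.05. The calls on the cortical side depended on the pseudocount: with 16 in place of 54.7, 1 was higher in cortex and 5 in cerebellum, and with a floor of 1 and no pseudocount 0 and 4. Those of cortex alone that were higher went from 7 to 1 and to 0. All 19 were also called against 15.5 dpc in 1 region or both. The cortex class held 13 (7 higher, 6 lower) and the cerebellum class 15 (9 higher, 6 lower), with 9 in both because they were called with opposite signs. For Met in cerebellum, and for Tph2 and Cnpy1 in cortex, signals on both sides of the call were below the array median. Without any 1 of the 4 neonatal arrays limma called 0 between regions (496 to 787 by unadjusted p), and 78 without either 15.5 dpc array. Fits with no duplication term, added after the data were seen, gave 0 and 53.

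Zbtb20, Gda and Celf2 were higher in cortex alone. Zbtb20, a transcriptional repressor of hippocampal and cortical development, read 1845 and 1936 in cortex, 115 and 137 in cerebellum, and 174 and 94.6 at 15.5 dpc. Only the cortical arrays stood above the array median. Its difference from 15.5 dpc was 3.56 ± 0.27 (adjusted p = 0.0188) in cortex, at least 7.07-fold, and 0.13 ± 0.27 (adjusted p = 0.805) in cerebellum. The 5 other probe sets stood between 0.65 and 1.98 in cortex, 2 of them called. At none of these 5 was the difference between regions called (adjusted p from 0.0501 to 0.305), so the class rests on 1 probe set. Gda, guanine deaminase, which binds the postsynaptic scaffold PSD-95, read 3412 and 4287 in cortex, 552 and 736 in cerebellum, and 574 and 680.5 at 15.5 dpc, so that cerebellum and embryo overlapped and both cortical arrays stood far above them. Both of its probe sets were in this class, and the named one differed by 2.68 ± 0.19 (adjusted p = 0.0188) in cortex. Celf2, an RNA-binding regulator of splicing, read 3267 and 3606 in cortex, 876 and 751 in cerebellum, and 1249 and 1172 at 15.5 dpc and differed by 1.63 ± 0.20 (adjusted p = 0.0217) in cortex and -0.38 ± 0.20 (adjusted p = 0.295) in cerebellum.

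Met and Bcl11b were higher in cortex than at 15.5 dpc, and in cerebellum they were called with the opposite sign. Met, the receptor tyrosine kinase of hepatocyte growth factor, read 679 and 940.0 in cortex, 40.6 and 23.8 in cerebellum, and 129.7 and 207 at 15.5 dpc. The embryonic signals lay between those of the regions, but like the cerebellar ones they were below the array median. Its difference was 2.12 ± 0.24 (adjusted p = 0.0215) in cortex, at least 2.99-fold, and -1.18 ± 0.24 (adjusted p = 0.0442) in cerebellum, where no fold is given. Bcl11b, the zinc finger factor of deep-layer cortical and of striatal neurons, read 3112 and 2699 in cortex, 662 and 644 in cerebellum, and 1502 and 1688 at 15.5 dpc at 1 probe set. It stood at 1.01 ± 0.19 (adjusted p = 0.0404) in cortex and -1.05 ± 0.19 (adjusted p = 0.0323) in cerebellum. Of its 3 probe sets, 2 were called with opposite signs and the third in cerebellum only.

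Mpped1 and Vax1 fell in cerebellum and were not called in cortex. Mpped1, a phosphodiesterase-domain gene of cortical neurons, read 4569 and 4956 in cortex, 1287 and 1137 in cerebellum, and 5083 and 4962 at 15.5 dpc. It stood at 0.09 ± 0.19 (adjusted p = 0.813) in cortex and fell in cerebellum, at -1.84 ± 0.19 (adjusted p = 0.0171). Vax1, a homeobox gene of the ventral forebrain, read 1299 and 945 in cortex, 175 and 159 in cerebellum, and 1025 and 756 at 15.5 dpc and fell at least 3.79-fold in cerebellum (adjusted p = 0.0171). In cortex it stood at 0.48 ± 0.20 (adjusted p = 0.214). For the fixed list of 29 tested telencephalon genes, 8 were higher and 1 lower in cortex, and 3 were higher and 5 lower in cerebellum, with medians of 0.57 and -0.08. Of all 6608 tested genes, 367 were higher and 74 lower in cortex, and 455 were higher and 76 lower in cerebellum. Their medians were 0.07 and 0.09. Neurod2, a factor of cortical excitatory neurons, stood at 0.12 ± 0.19 (adjusted p = 0.722) in cortex and -1.51 ± 0.19 (adjusted p = 0.0194) in cerebellum. The dopamine receptor gene Drd1 read 942 and 1429 in cortex, 207 and 155 in cerebellum, and 428 and 482 at 15.5 dpc and was higher in cortex, at 1.42 ± 0.26 (adjusted p = 0.0387). Lmo3, Cdh13 and Nell1 of this list rose in both regions, at 1.74 ± 0.26, 1.21 ± 0.17 and 1.69 ± 0.19 in their mean. Ndst4, a heparan sulfate enzyme, fell in both, at -1.26 ± 0.21 (adjusted p = 0.0224).

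The transcription factor genes Tfap2b, Pax7 and Pou4f1 rose in cerebellum and were called lower in cortex. Tfap2b, which is needed in cerebellar GABAergic interneurons, read 339 and 363 in cortex, 7313 and 6639 in cerebellum, and 2466 and 1036 at 15.5 dpc. The cerebellar signals were the highest, the cortical ones the lowest, and the embryonic ones between. Its difference was 2.25 ± 0.36 (adjusted p = 0.0267) in cerebellum and -1.87 ± 0.36 (adjusted p = 0.0419) in cortex. Pax7, of the dorsal midbrain and neural tube, read 22.5 and 23.6 in cortex, 1394 and 912 in cerebellum, and 507 and 141 at 15.5 dpc and stood at 2.0 ± 0.39 (adjusted p = 0.0382) in cerebellum and -1.93 ± 0.39 (adjusted p = 0.0466) in cortex. Its cortical signals were below the array median, so the fall there was at least 1.15-fold, and one 15.5 dpc signal was below it too. Pou4f1, a factor of sensory and midbrain neurons, read 179.8 and 72.1 in cortex, 1246 and 657 in cerebellum, and 584 and 255 at 15.5 dpc. It stood at 1.28 ± 0.19 (adjusted p = 0.0246) in cerebellum and -1.20 ± 0.19 (adjusted p = 0.0327) in cortex, where the signals were below the median and the fall was at least 1.66-fold. Its other probe set was called higher in cerebellum, without a called difference between regions. Cnpy1, a modulator of FGF signalling at the midbrain-hindbrain boundary, read 6.28 and 2.06 in cortex, 456 and 332 in cerebellum, and 175 and 90.3 at 15.5 dpc, and only the cerebellar arrays exceeded the array median. The rise in cerebellum was at least 1.46-fold (adjusted p = 0.0262), and cortex and embryo were both below the median. At the other tested probe sets of Cnpy1 the difference between regions was not called (adjusted p = 0.0501 and 0.0709). A probe set without a gene name was also called with opposite signs, at 1.74 in cerebellum and -2.29 in cortex.

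Tph2, Slc6a2 and Dbh, genes of monoamine neurons, were higher on the cerebellar arrays. Tph2, the enzyme of serotonin synthesis in neurons of the raphe, read 69.5 and 48.0 in cortex, 789 and 569.6 in cerebellum, and 203 and 196 at 15.5 dpc, a rise of at least 2.51-fold in cerebellum (adjusted p = 0.0179); in cortex it was called lower, at -1.01 ± 0.19, with both sides below the median. Slc6a2, the noradrenaline transporter of the locus coeruleus, read 33.6 and 21.1 in cortex, 1273 and 1072 in cerebellum, and 27.3 and 24.3 at 15.5 dpc. Both cerebellar arrays were bright and the other 4 near 0, a rise of at least 4.37-fold (adjusted p = 0.00711). Its 2 other probe sets stood at 0.47 ± 0.26 and 0.43 ± 0.24 in cerebellum and were not called. Dbh, which makes noradrenaline, read 173 and 158 in cortex, 466 and 613 in cerebellum, and 160.3 and 229 at 15.5 dpc and rose at least 2-fold in cerebellum (adjusted p = 0.0243), while cortex stood at -0.00 ± 0.21 (adjusted p = 0.994). Cell bodies of these neurons lie in the brainstem, and how far the cerebellar dissection reached is not stated in the labels. Whether adjoining brainstem was included was not tested. Hcrtr1, an orexin receptor, rose at least 1.63-fold in cerebellum, from 52.0 and 42.4 to 396 and 479 units, and Zfp853, a zinc finger gene, at least 1.84-fold. For the 23 tested genes of the cerebellum, midbrain and hindbrain list, 8 were higher and 0 lower in cerebellum, and 0 higher and 4 lower in cortex, with medians of 0.76 and -0.34. Of all 6608 tested genes, 455 were higher and 76 lower in cerebellum, and 367 were higher and 74 lower in cortex. Rora, a nuclear receptor of Purkinje cells, rose in cerebellum at 1.07 ± 0.21 (adjusted p = 0.0404), and Grm4, a glutamate receptor of granule cells, at 1.16 ± 0.19 (adjusted p = 0.0267). For Neurod2, Drd1, Dbh, Rora and Grm4 the difference between the regions was not called. Of 9 tested hypothalamic and thalamic genes, Cdh8 rose in both regions. Pmch, a peptide precursor of hypothalamic neurons, read 1018 and 1468 in cortex, 222 and 196 in cerebellum, and 520.3 and 1038 at 15.5 dpc. It fell at least 3.16-fold in cerebellum (adjusted p = 0.0361), and its difference between the regions was not called. The cortex samples, on which Pmch was bright, are also described as forebrain in the labels. Whether they included tissue beyond cortex was not tested.

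**Figure D4:**
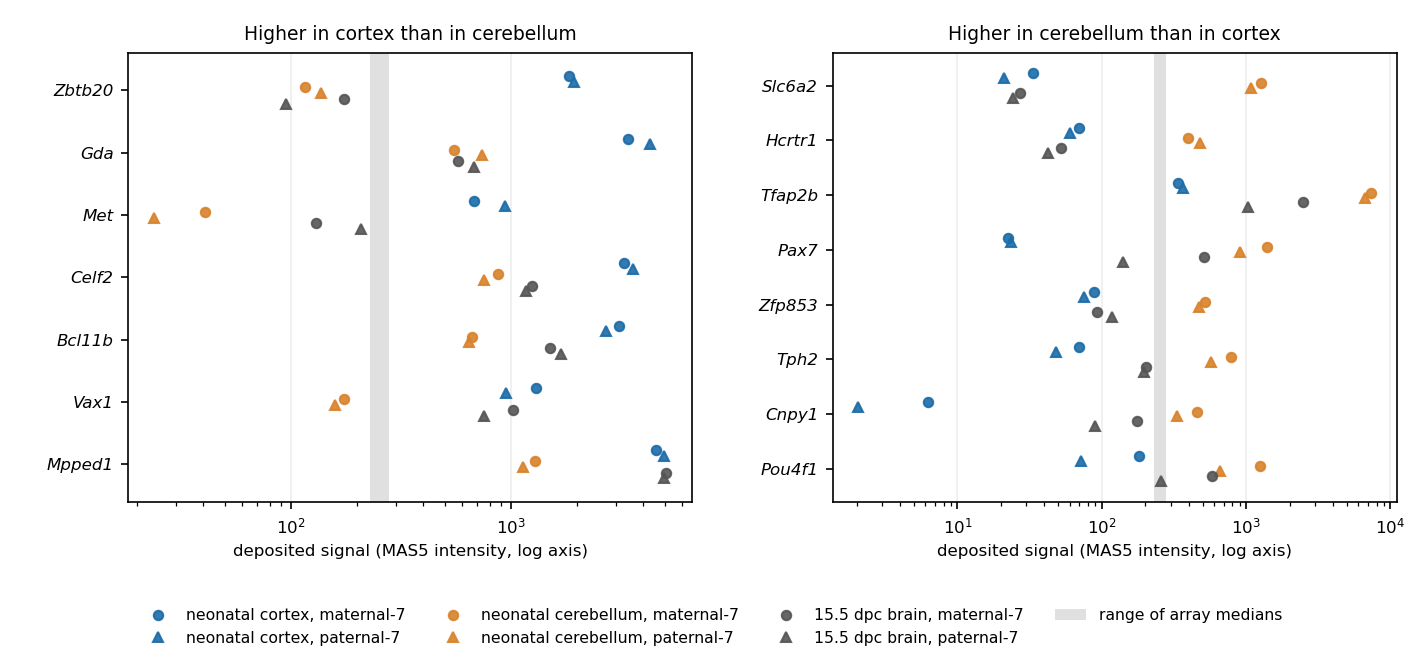
Deposited signals (log axis) of the 15 genes named for a change of 1 region, with 1 point per array, coloured by tissue and shaped by duplication; the grey band is the range of array medians. Both cortex points lie right of both cerebellum points for the 7 genes on the left and left of them for the 8 on the right. The 15.5 dpc points of Met, Celf2, Bcl11b, Tfap2b, Pax7, Zfp853, Tph2, Cnpy1 and Pou4f1 lie between the regions.

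Of 35 tested RNA-binding and splicing genes, 6 rose and 1 fell in the mean of both regions, with a median of 0.46; without centring 3 rose, and after quantile normalization 2. For all tested genes the shares were 10.3% and 2.03%. Hnrnpd, which binds AU-rich elements, read 3288 and 3058 in cortex, 3267 and 2924 in cerebellum, and 1423 and 979 at 15.5 dpc, and both regions were higher by 1.55 ± 0.22 and 1.51 ± 0.22. Rbfox1 and Rbfox3, neuronal splicing factors, rose by 0.93 ± 0.18 and 0.95 ± 0.18. Tra2a, a splicing activator, read 169.9 and 132 in cortex, 127 and 131 in cerebellum, and 563 and 343 at 15.5 dpc and was at least 1.89-fold lower (adjusted p = 0.0248). Of 38 tested chromatin regulators, 4 rose and 2 fell, a share of rises close to that of all tested genes, with a median of 0.26 that was -0.0043 after quantile normalization. Hmgb2, a DNA-bending protein abundant in dividing cells, read 288 and 205 in cortex, 301 and 204 in cerebellum, and 687 and 483 at 15.5 dpc and stood at -0.91 ± 0.16 (adjusted p = 0.0247), and the histone methyltransferase gene Suv39h2 fell at least 1.56-fold (adjusted p = 0.0264). Phf10, a subunit of BAF complexes, rose in both regions, at 1.01 ± 0.18 in their mean, and Chd5, a neuronal remodeller, at 0.74 ± 0.16 in the mean alone. Of 5 cholesterol genes 1 rose, the sterol exporter Abcg1 (1.40 ± 0.29 (adjusted p = 0.035)), and of 7 tested genes of the respiratory chain 0 were called, with a median of -0.16. The summed signal of these 7 was 18300 to 23800 on the neonatal arrays and 41410 and 32390 at 15.5 dpc. Without centring 1 of the 7 fell, and after quantile normalization 2.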

How the data were processed

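The authors deposited 1 signal intensity per probe set and array, made with MAS5 per the submitters' processing notes, on a linear scale; further settings are not given in the sources used here. To each signal was added 54.7, a typical 20th percentile of an array's signals, and log2 values were centred on each array's median. Of 22511 probe sets without the 64 controls, 14661 had 1 gene symbol, 245 several and 7605 none in the platform annotation, of which 14486 matched RefSeq by gene identifier. limma 3.58.1 in R 4.3.3 was fitted to all 12499 probe sets above the median on at least 2 of 6 arrays, with terms for 3 tissues and the duplication and 2 residual degrees of freedom. The fit was tested on simulated data. The number of arrays, 2 per tissue, limits the precision.

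A change was shared if called with 1 sign in both regions, and of 1 region if called there and between the regions with the same sign. A gene in a list was represented by its brightest tested probe set. The comparison, its members and the lists were chosen with earlier results of these data known. Genes were named by rule: the 12 largest shared rises and falls by the smaller regional difference with all 4 neonatal arrays beyond both 15.5 dpc arrays, at most 3 with clone-type names in each direction; the 8 largest in each direction for 1 region; up to 4 with opposite signs; and up to 4 called members a list by smallest p, with defining markers. Other list members and other probe sets named were chosen after their values were seen, as were the gene families of the closing section. A fold is given as "at least" where 1 group lay below the array medians, with the median standing for the dim group. Promoter sequences are from RefSeq (GRCm38.p6). Other normalizations, pseudocounts, filters, array sets and models were tried.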

Additional observations from a re-analysis of the deposited data

Results flagged for a closer look

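The change from 15.5 dpc differed between cortex and cerebellum, by limma's adjusted p of the regional difference, for 15 named genes. The values are log2 changes in cortex minus those in cerebellum, which equal cortex minus cerebellum because both share the 15.5 dpc arrays. Zbtb20 differed by 3.43 and Met by 3.30. Smaller positive differences were those of Gda (2.48 and 2.07 at its 2 probe sets), Vax1 (2.39), Celf2 (2.01), Mpped1 (1.93) and Bcl11b (1.91, 2.06 and 1.89 at its 3 probe sets). On the cerebellar side, Tfap2b differed by -4.12, Pax7 by -3.93 and Slc6a2 by -3.90. Cnpy1 differed by -2.92, Tph2 by -2.69, Pou4f1 by -2.48, Hcrtr1 by -2.04 and Zfp853 by -2.01. Adjusted p ranged from 0.00934 for Slc6a2 to 0.0477 for Hcrtr1.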

How the results depend on the processing

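Named genes kept their direction in each alternative run, over 159 results (132 with the stricter filter). Each result was the mean of both regions for shared and list genes, or 1 region against 15.5 dpc for genes of 1 region. The difference between regions was not followed gene by gene, so a kept call is not a kept class. The calls of 137 were kept without centring, 126 with quantile normalization and 0 with no filter, where all 7 counts were 0. Without the maternal-7 or the paternal-7 cortex array 65 and 26 of these calls were kept, without the 15.5 dpc maternal-7 or paternal-7 array 139 and 92, and without a cerebellar array 0. With a pseudocount of 16, cortex had 513 calls, shared 324, cortex minus cerebellum 6, cortex alone 5 and cerebellum alone 6. With a floor of 1 and no pseudocount, the counts were 309 for cortex, 528 for cerebellum, 206 shared, 4 between regions, 3 for cortex alone and 4 for cerebellum alone. Without centring 35 were called between regions; after quantile normalization 11, with 327 shared and 7 for cerebellum alone. With the stricter filter (75th percentile) the counts were 1498, 1439, 984, 97, 52 and 53 in the order cortex, cerebellum, shared, between regions, cortex alone and cerebellum alone, and with an intensity trend 1488, 1513, 964, 82, 39 and 45. With all 8 arrays, 46 were called between regions, 25 for cortex alone and 28 for cerebellum alone. The duplication is the replicate number of the labels; without this replicate block 1400 were called in the mean of both regions, 818 in cortex, 987 in cerebellum, 531 shared, 44 between regions, 22 for cortex alone and 25 for cerebellum alone. Leaving out 1 array gave 0 to 2132 for the mean, 0 to 1764 for cortex, 0 to 1863 for cerebellum, 0 to 78 between regions, 0 to 1266 shared, 0 to 40 for cortex alone and 0 to 40 for cerebellum alone. Without the duplication term, an alternative added after seeing the data, the ranges were 238 to 1920, 0 to 1500, 0 to 1591, 0 to 53, 0 to 1053, 0 to 26 and 0 to 28. A fit without filter or with fewer arrays tests other features or has fewer degrees of freedom; the cause of the other differences was not tested. Signals below the array median limit what can be said of dim genes.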

Other observations

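Families of cell adhesion and signalling genes, grouped by symbol after the values were seen, also held called genes. Of 10 tested protocadherins, which carry homophilic contacts between neurons, 7 were higher in the mean of both regions and 0 lower, with a median of 1.21 against 0.08 for all tested genes. Of all tested genes, 10.3% were higher and 2.03% lower, which is the background for each family here and below. Pcdh11x read 3550.0 and 3269 in cortex, 5484 and 5917 in cerebellum, and 1485 and 1109 at 15.5 dpc, and all 4 neonatal arrays stood above both embryonic ones, with a difference of 1.90 ± 0.19 (adjusted p = 0.0119). Pcdh17, Pcdh7 and Pcdh19 stood at 1.83 ± 0.17, 1.81 ± 0.34 and 1.59 ± 0.19. Of 8 other cadherins 3 were higher, with a median of 0.46. Of 4 tested teneurins, the partners of latrophilins across the synapse, 3 were called higher. Tenm1 read 4623 and 4089.5 in cortex, 4263 and 3768 in cerebellum, and 1585 and 1401 at 15.5 dpc and stood at 1.62 ± 0.16 (adjusted p = 0.0115), and Tenm2 and Tenm3 at 1.48 ± 0.20 and 1.25 ± 0.17. Of 8 adhesion G protein-coupled receptors 3 were higher, Adgrg2 (at least 1.57-fold), Adgrb2 (1.05 ± 0.16) and Adgrb3 (1.0 ± 0.16). Among 9 ephrins and Eph receptors, Epha10 (at least 2.67-fold) and Epha4 (0.96 ± 0.18) were higher and Epha3 (-0.87 ± 0.16) was lower.

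Signalling families grouped in the same way gave both called and uncalled members. Adcy1, a calcium-stimulated adenylyl cyclase, read 11959 and 15529 in cortex, 8098 and 8633 in cerebellum, and 3544 and 3693 at 15.5 dpc, highest in cortex, and stood at 1.71 ± 0.18 (adjusted p = 0.012) in the mean of both regions. Adcy5 and Adcy9 stood at 1.25 ± 0.17 and 0.84 ± 0.18, so that 3 of 4 tested cyclases were called. Of 10 G protein subunits 4 were higher, among them Gnal (1.85 ± 0.22), which couples receptors to adenylyl cyclase, and Gnaz (1.65 ± 0.16). Of 6 RGS proteins 1 was higher, Rgs17 (1.78 ± 0.17), with a median of 0.03. Of 10 tested centromere protein genes 0 were higher and 2 lower, Cenps (-0.85 ± 0.19) and Cenpw (-0.78 ± 0.16), with a median of -0.45. The 23 tested genes of the mitochondrial ribosome had a median of -0.14, with 1 called higher. Of 191 tested Zfp zinc finger genes 4 were higher and 4 lower. The share of Zfp genes that rose was below the 10.3% of all tested genes, and the share that fell was close to their 2.03%.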
